A study of Mus musculus with 4 samples.

Results

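Ubiquitin-specific proteases (USPs) were followed at the RNA level in mouse embryonic fibroblasts (MEFs), primary cultures of the connective-tissue cells of an embryo. The members were the protein-coding genes whose symbol is Usp followed by a number, with at most a letter and further digits after it. In all, 50 of the 54532 gene IDs of the count table met this rule, and the rule used no measured value. Usp26 and Usp7 were set against the others. Usp26 was picked out with its pattern in these data known, so its values are given as a description without a test.

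The 4 genotypes were Trp53-/-; Zfp871-/- (double null), Zfp871-/-, Trp53-/- and wild type (WT), each with 1 library. Libraries held 22324599 counts for the double null, 19974054 for Zfp871-/-, 21004078 for Trp53-/- and 19303167 for WT. Trp53 encodes p53, and Zfp871 encodes a zinc finger protein. The cells were C57BL/6, came from embryos at 12.5 to 13.5 days post-coitum, and were dividing at passage 4. Matings between mice heterozygous for both genes gave WT, Trp53-/- and double-null embryos, and matings between Zfp871 heterozygotes gave WT and Zfp871-/- embryos. The double null and Zfp871-/- thus differ in mating as well as in Trp53, and mating and Trp53 loss cannot be told apart in that pair. The sources used here do not state the mating behind the sequenced WT cells, any pooling of embryos or the design of the 2 alleles. Since no genotype was repeated, a difference between 2 libraries has no replicate check.

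USPs form the largest family of deubiquitinases, the enzymes that remove ubiquitin, a small protein tag, from other proteins. Removing a chain of tags can save a protein from the proteasome, while removing single tags changes signalling, chromatin or trafficking. The family meets p53 at several points. USP7 removes ubiquitin both from p53 and from Mdm2, the ubiquitin ligase that marks p53 for destruction and whose gene is itself switched on by p53. USP26 belongs to a small group of related proteins with USP29 and USP37, is encoded on the X chromosome and is best known from the testis. It has been described as acting on the androgen receptor and on Mdm2.

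The targeted genes were reduced but still counted. Zfp871 had 307 counts in the double null and 327 in Zfp871-/-, against 784 in Trp53-/- and 660 in WT. Trp53 had 1382 counts in the double null and 1233 in Trp53-/-, against 2413 in Zfp871-/- and 2383 in WT. Both followed the labels, and which exons the remaining reads came from cannot be read from counts per gene. All 10 fibroblast markers listed were counted in every library, with a summed level of 30027.5 CPM in the double null, 43414.6 in Zfp871-/-, 33045.5 in Trp53-/- and 42303.2 CPM in WT. Single markers did not all follow this sum. Thy1 had 22282, 16380, 24868 and 6549 counts in the same order, and Dcn 2994, 3626, 5502 and 1504. Scaled to library size, 8 of the 10 were higher in Zfp871-/- than in WT, and 5 were higher in Trp53-/- than in WT.

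The family as a whole was expressed and took a nearly constant share of the RNA. USP genes held 0.351% of the counts in the double null, 0.333% in Zfp871-/-, 0.341% in Trp53-/- and 0.308% in WT. Expression was taken as a CPM (a count scaled to the size of its library) of 1 or more in any 2 of the libraries, which 45 of the 50 members reached. The other 5 were Usp43, Usp44, Usp50, Usp51 and Usp9y, with at most 16 counts in any library. Usp43 had 16 counts in the double null, 2 in Zfp871-/-, 14 in Trp53-/- and 5 in WT. Usp50 had 2 in the double null, 8 in Zfp871-/-, 1 in Trp53-/- and 3 in WT, while Usp44 stayed at 2 or below and Usp51 at 5 or below. In Usp43 the double null exceeded Zfp871-/- beyond counting error, at a log2 ratio of 1.95 (0.61 to 5.86). Usp9y lies on the Y chromosome and had 0 counts throughout. The 4 other Y-linked genes examined had at most 1 count in a library, whereas Xist, the RNA of the inactive X chromosome, had 9152 to 14475 counts.

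Levels per length were compared as FPKM (the authors' values, scaled for exon length and library depth). The 45 expressed members had a median of 6.17 FPKM averaged over the 4 libraries, against 5.78 FPKM for all 13306 genes kept. Usp5, which takes apart free ubiquitin chains, stood highest at a mean of 37.1 FPKM, with 3813 counts in the double null, 3452 in Zfp871-/-, 3465 in Trp53-/- and 3436 in WT. Usp1, which acts in DNA repair, and Usp39, a splicing factor without protease activity, followed with means of 29.9 and 29.8 FPKM. Their order is not firm, since Usp1 ranged between 18.8 and 38.2 FPKM over the libraries. Among the members kept, Usp29 was lowest at a mean of 0.113 FPKM, followed by Usp26 at 0.674 and Usp49 at 1.27 FPKM. Usp49 shares 51.2% of its exon bases with the predicted gene Gm20517, so its reads are uncertain.

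Usp26 (ENSMUSG00000055780, chromosome X, 51753959 to 51801233, minus strand, GRCm38/mm10) was counted in both libraries without Zfp871 and in neither library with it. It had 70 counts in the double null and 153 in Zfp871-/-, against 0 counts in Trp53-/- and 0 in WT. Taking 3 counts as the limit that a count of 0 allows in a library, the double null exceeded Trp53-/- at least 21.9-fold. Zfp871-/- exceeded WT at least 51.1-fold on the same basis. None of the exons of Usp26 overlap an annotated exon of another gene. The values are counts per gene, which show neither which exons were read nor whether protein was made.

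The level of Usp26 was low even where it was present. It reached 0.728 FPKM in the double null and 1.97 FPKM in Zfp871-/-. In Zfp871-/- it ranked 38 among the 50 members and lay above 26.7% of all genes kept, and in the double null it ranked 44 and lay above 12.9% of them. The double null held less of it than Zfp871-/-, with a log2 ratio of -1.40 (95% counting interval -1.86 to -1.01). In bulk RNA a smaller number of expressing cells and less RNA per cell cannot be told apart.

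Of 54532 genes, 1 had at most 3 counts in each library with Zfp871 and at least 20 counts in each library without it, and that gene was Usp26. The rule was written to look for genes like Usp26 with its pattern already known, so that Usp26 met it is no test. The reverse pattern was found in 2 genes, the enamel genes Ambn and Odam. Rnf17, a Tudor-domain gene of male germ cells, came near the pattern of Usp26 and missed only the ceiling of 3 counts. It had 311 counts in the double null and 301 in Zfp871-/-, against 14 in Trp53-/- and 10 in WT. Of 21 germ cell genes listed, only Rnf17 and Ddx4, an RNA helicase of the germ line, passed the CPM filter. Ddx4 had 16 counts in the double null and 39 in Zfp871-/-, against 22 in Trp53-/- and 26 in WT, and these values overlap between the groups. The meiosis and sperm genes Stra8, Tex101 and Tnp1 had 0 counts in every library. X-linked germ cell genes were near the limit of counting, with at most 4 counts for Tex11, 8 for Taf7l, 10 for Nxf2 and 13 for Tktl1. Tktl1 had 1 count in the double null and 13 in Zfp871-/-, against 2 in Trp53-/- and 1 in WT. Piwil2, on the same list, had 6, 30, 11 and 10 counts in that order, so both were highest in Zfp871-/- alone. Tdrd1 went the other way with 12, 0, 9 and 4.

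None of the neighbours of Usp26 on the X chromosome was higher in both libraries without Zfp871 to a like degree. Within 1 Mb there were 9 other protein-coding genes in the table, of which 6 passed the CPM filter. Hs6st2, a heparan sulfate sulfotransferase gene that lies 72.1 kb away, had 2696 counts in the double null and 3293 in Zfp871-/-, against 2405 in Trp53-/- and 2579 in WT. Its log2 ratios of Zfp871 loss were 0.35 with Trp53 and 0.08 without it. On the other side Gpc4, a glypican gene 251.8 kb away, was lower in both pairs at log2 ratios of -0.58 and -0.49. Gpc3, another glypican gene on that side, had ratios of -1.69 and -0.43. 1700080O16Rik, which lies between Usp26 and Gpc4, had 0 counts in all 4 libraries. The kinase gene Stk26, 860.9 kb away on the side of Hs6st2, had ratios of -3.23 and -1.89.

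The promoter of Usp26 is shown because it differs in composition from most of the family. Each sequence below covers 250 bases before and 50 after the RefSeq start of the gene (GRCm38.p6), 5′ to 3′ on the strand of the gene, with every CpG dinucleotide in capitals. They are Usp26 (chrX:51801184-51801483, minus strand), the related Usp29 (chr7:6730333-6730632, plus strand) and Usp37 (chr1:74505772-74506071, minus strand), and Usp7 (chr16:8738293-8738592, minus strand).
Usp26: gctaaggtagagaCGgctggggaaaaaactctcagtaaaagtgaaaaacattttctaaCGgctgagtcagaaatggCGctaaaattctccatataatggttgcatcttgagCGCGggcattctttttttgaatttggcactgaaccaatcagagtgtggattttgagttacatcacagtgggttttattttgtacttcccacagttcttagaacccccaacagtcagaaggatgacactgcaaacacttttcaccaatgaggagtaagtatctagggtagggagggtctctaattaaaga
Usp29: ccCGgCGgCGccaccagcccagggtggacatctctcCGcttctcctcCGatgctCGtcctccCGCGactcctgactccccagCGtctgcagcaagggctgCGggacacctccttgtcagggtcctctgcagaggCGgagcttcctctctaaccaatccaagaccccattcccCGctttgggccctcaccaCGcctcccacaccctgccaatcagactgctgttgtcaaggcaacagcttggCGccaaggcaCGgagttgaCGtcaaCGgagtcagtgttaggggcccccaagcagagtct
Usp37: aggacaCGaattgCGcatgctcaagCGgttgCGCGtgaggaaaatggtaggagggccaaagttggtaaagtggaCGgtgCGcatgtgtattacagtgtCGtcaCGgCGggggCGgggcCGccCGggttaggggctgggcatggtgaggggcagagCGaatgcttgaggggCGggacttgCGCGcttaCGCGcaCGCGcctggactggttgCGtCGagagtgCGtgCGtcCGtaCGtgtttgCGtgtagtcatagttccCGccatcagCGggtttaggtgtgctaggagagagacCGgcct
Usp7: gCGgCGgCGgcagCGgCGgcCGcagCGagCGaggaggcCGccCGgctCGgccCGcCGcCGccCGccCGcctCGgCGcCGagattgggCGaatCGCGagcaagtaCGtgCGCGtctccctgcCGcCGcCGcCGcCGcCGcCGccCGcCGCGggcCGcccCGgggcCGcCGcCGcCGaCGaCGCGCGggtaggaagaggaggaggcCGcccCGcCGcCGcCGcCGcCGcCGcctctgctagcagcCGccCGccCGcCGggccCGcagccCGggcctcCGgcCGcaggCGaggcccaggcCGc
The 4 promoters held 5, 17, 31 and 63 CpG dinucleotides in that order. RefSeq promoters were at hand for 38 of the 50 members, and the other 37 had a median of 28 CpG, with a range of 2 to 63. Of these 37, only Usp50 with 2 and Usp54 with 5 had no more than Usp26. Usp50 was among the members below the CPM filter, but Usp54 was expressed at a mean of 2.09 FPKM. Over the promoters of protein-coding genes, 32.3% had at most 5 CpG and the median was 13. Both strands were searched for 5 short motifs that do not contain each other. The CCAAT box was in the Usp26 promoter, in 10 of the 38 USP promoters and in 37.4% of all promoters of this length. The GC box, GGGCGG, was in 26 of the 38 and in 35.7% of all promoters, but not in those of Usp26 and Usp29. A TATAAA motif was in 2 USP promoters and 13.6% of all. The E box CACGTG was in 4 USP promoters and 7.15% of all, and neither was in that of Usp26. The cyclic AMP response element TGACGTCA was in 1, that of Usp29, and in 1.79% of all promoters.

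**Figure D1:**
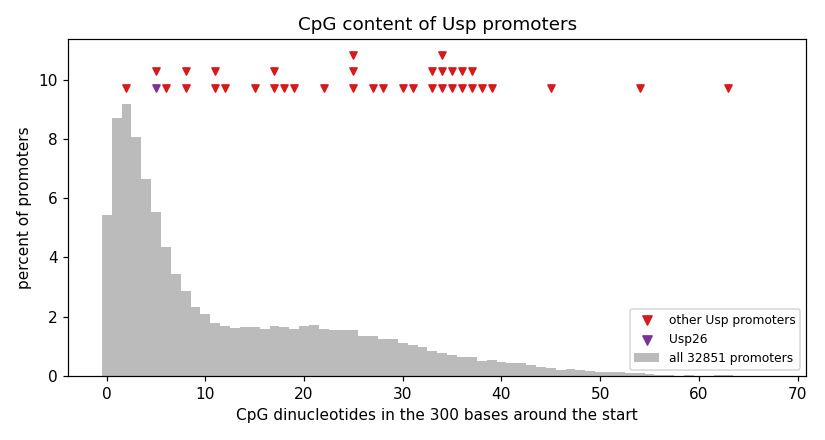
CpG dinucleotides in the 250 bases before and 50 after the RefSeq start (x axis) and the percent of all 32851 promoters with that number (grey bars, y axis). Triangles above the bars mark the 38 USP promoters, stacked where they share a number: Usp26 stands at 5 while the median of the other 37 is 28.

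The relatives of Usp26 did not share its pattern. Usp29, an imprinted gene expressed from the paternal copy, had 56 counts in the double null, 35 in Zfp871-/- and 80 in Trp53-/-, against 5 in WT. WT was thus the low library. The log2 ratio of Zfp871 loss was 2.43 (1.45 to 4.52) with Trp53 and -0.58 (-1.12 to -0.09) without it. Peg3, which shares a start region with Usp29 and is imprinted with it, was also lowest in WT, with 3899 counts in the double null, 4014 in Zfp871-/-, 4555 in Trp53-/- and 1389 in WT. Peg3 was looked up after the values of Usp29 were seen. WT also held the highest summed level of 7 chondrocyte markers, with 199.7 CPM in the double null, 519.8 in Zfp871-/- and 138.0 in Trp53-/-, against 1323.0 CPM in WT. Among them, 1 was at 0 in the double null and 1 in Trp53-/-. Most of the WT counts were of Col2a1 (11633) and Col11a1 (10392). Matn3 had 33, 24, 10 and 12 counts in the same order of genotypes, and Sox9 774, 771, 654 and 798. The summed level of the 5 epithelium markers listed was lowest in WT, at 14.6, 20.6, 14.8 and 6.79 CPM in that order. Cdh1 did not follow this sum, with 11, 1, 15 and 5 counts, and Epcam had only 2, 2, 2 and 0. The part of any such cells in the level of Usp29 was not tested. Zim3, which overlaps 14.3% of the exon bases of Usp29 on the other strand, had 0 counts throughout. Usp37, which acts on cyclin A and other proteins of S phase, had 970 counts in the double null, 674 in Zfp871-/-, 953 in Trp53-/- and 439 in WT. It too was lowest in WT, with log2 ratios of Zfp871 loss of 0.62 (0.44 to 0.80) with Trp53 and -0.06 (-0.19 to 0.07) without it.

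**Figure D2:**
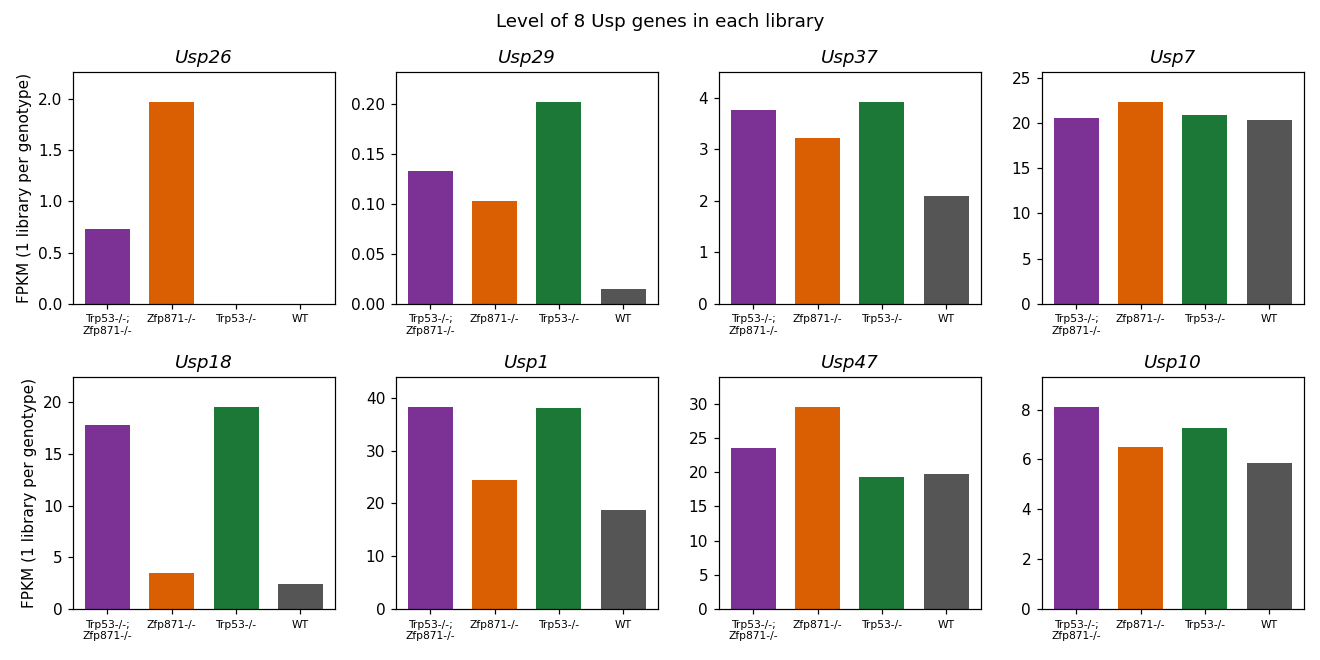
Level of 8 USP genes in FPKM (y axis, from 0, scaled per gene) in the double null, Zfp871-/-, Trp53-/- and WT, with 1 bar per library and no replicate. Usp26 is at 0 in Trp53-/- and WT, Usp29 and Usp37 are lowest in WT, Usp18 and Usp1 are high in both libraries without Trp53, and Usp7 lies between 20.3 and 22.3 FPKM in all.

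Usp7 (ENSMUSG00000022710, chromosome 16, 8689595 to 8792308, minus strand) varied little over the genotypes. It had 3697 counts in the double null, 3258 in Zfp871-/-, 3566 in Trp53-/- and 2996 in WT, or 20.5, 22.3, 20.9 and 20.3 FPKM. The log2 ratio of Zfp871 loss was 0.12 (0.05 to 0.20) with Trp53 and -0.04 (-0.10 to 0.03) without it. For Trp53 loss Usp7 had a log2 ratio of 0.04 (-0.03 to 0.11) where Zfp871 was intact and of -0.12 (-0.19 to -0.05) where it was missing, and scaling by total counts turned the second to 0.02. In the additive fit, which estimates each loss over all 4 libraries, the fitted log2 changes of Usp7 were 0.04 (SE 0.11) for Zfp871 loss and -0.04 (SE 0.11) for Trp53 loss. Neither passed (edgeR quasi-likelihood test, Benjamini-Hochberg adjusted p = 0.953 and 0.839).

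Among the partners of Usp7, its substrate Mdm2 had 1523 counts in the double null and 1397 in Trp53-/-, against 7786 in Zfp871-/- and 5875 in WT. Mdm2 was low in both libraries without Trp53, where it fell by 2.47 on the log2 scale (SE 0.145, adjusted p = 0.0102 in the edgeR quasi-likelihood test). Daxx, which links Usp7 to Mdm2, had a fitted log2 change of 0.55 (SE 0.118) with Trp53 loss and missed the threshold (edgeR quasi-likelihood test, Benjamini-Hochberg adjusted p = 0.0634). Rassf1, a tumour suppressor gene whose product acts on that complex, rose by 0.67 (SE 0.112, adjusted p = 0.0422 in the same edgeR test). Gmps, a metabolic enzyme that binds USP7, had a change of 0.37 (SE 0.103, adjusted p = 0.101 in the edgeR test). Of the 12 genes listed around p53 ubiquitination outside the family, 2 rose and 3 fell with Trp53 loss, beside 5.01% and 4.31% of all genes, and 0 were called for Zfp871 loss, beside 0% of all genes. Those that fell were Trp53 itself, Mdm2 and Cdkn1a, and Cdkn2a rose beside Rassf1.

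The USPs described as acting on p53 or Mdm2 form a list of 13 with Usp26 and Usp7. All passed the CPM filter, Usp26 only through the libraries where it was high, and the median log2 ratio was 0.12 in Zfp871-/- against WT and 0.05 in the double null against Trp53-/-. Of the 12 besides Usp26, 0 were called by the additive edgeR test for either loss, beside 0% of all genes for Zfp871 loss and 9.33% for Trp53 loss. Usp10, which deubiquitinates p53 in the cytoplasm, had 1799 counts in the double null, 1168 in Zfp871-/-, 1527 in Trp53-/- and 1063 in WT. Both libraries without Trp53 were above both with it, at log2 ratios of 0.31 (0.20 to 0.43) in Trp53-/- over WT and 0.32 (0.21 to 0.43) in the double null over Zfp871-/-. Its fitted change of 0.32 (SE 0.102) did not pass (edgeR test, Benjamini-Hochberg adjusted p = 0.128). Usp28, which binds 53BP1 and p53, had 495 counts in the double null, 273 in Zfp871-/-, 476 in Trp53-/- and 350 in WT, and its fitted change with Trp53 loss was 0.39 (SE 0.167, adjusted p = 0.203 in the edgeR test). Usp15, which stabilises Mdm2, had fitted log2 changes of 0.29 (SE 0.101) with Trp53 loss and 0.04 with Zfp871 loss. Usp2, another protease of Mdm2, had 177 counts in the double null and 177 in Zfp871-/-, against 204 in Trp53-/- and 105 in WT, so that WT was below the rest. Usp42, a p53 protease, had 997 counts in the double null, 752 in Zfp871-/-, 857 in Trp53-/- and 609 in WT, with log2 ratios of Zfp871 loss of 0.31 with Trp53 and 0.13 without it. Usp24, which acts on p53 in DNA damage, had 3682 counts in the double null, 3372 in Zfp871-/-, 3354 in Trp53-/- and 2904 in WT. Usp4, described as acting on a ligase of p53, had 3152, 2950, 2964 and 2941 counts in the same order of genotypes, and Usp48, which is tied to Mdm2, 2049, 1742, 1831 and 1629. These 3 stayed within 0.22 on the log2 scale in each of the 4 pairs that differ in 1 gene.

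Over the whole family, Zfp871 loss was described by few large differences. In Zfp871-/- against WT, Usp26 and Usp29 were at least 2-fold higher and 0 members at least 2-fold lower, or 2 of 45, beside 7.5% of all genes at least 2-fold apart either way (3.52% higher and 3.98% lower). In the double null against Trp53-/-, Usp26 alone passed 2-fold, beside 1.83% of all genes (0.819% higher and 1.01% lower). The median log2 ratio of the members was 0.12 in the first pair, where that of all genes was 0.00, and 0.04 in the second, where it was 0.00. These medians were the same with Usp26 placed at its lower bound. Spread was narrow, with a median absolute log2 ratio of 0.21 against 0.24 for all genes in the first pair and 0.10 against 0.13 in the second. At a Benjamini-Hochberg adjusted p under 0.05 the additive edgeR quasi-likelihood test called 0 of the 44 members other than Usp26 for Zfp871 loss, beside 0% of all genes. At an unadjusted p under 0.05 it listed Usp47 alone among them, beside 3.83% of all genes. DESeq2 and limma-voom called 0 members each.

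Smaller differences of Zfp871 loss were counted against counting error alone. In Zfp871-/- against WT, 31 of the 44 members other than Usp26 had a positive log2 ratio, beside 49.5% of all genes. Beyond counting error 22 of the 44 were higher and 4 lower, beside 27.7% and 27.3% of all genes. In the double null against Trp53-/-, 24 of the 44 had a positive ratio, beside 50.9% of all genes. There 11 were higher and 6 lower beyond counting error, beside 19% and 17.5% of all genes. In both backgrounds 9 members were higher beyond counting error and 0 were lower, beside 8.24% and 5.95% of all genes. Without Usp26, whose choice fixed its direction, 8 of 44 were higher. The pairs behind these counts share no library. The 9 were Usp10, Usp14, Usp19, Usp26, Usp30, Usp36, Usp39, Usp47 and Usp54. Under scaling by total counts 5 of them were left, Usp14, Usp26, Usp36, Usp39 and Usp47, beside 7.14% of all genes. Leaving out Usp26, that was 4 of 44. Apart from Usp26 the difference was widest for Usp47, a protease of the base excision repair polymerase beta. It had 7503 counts in the double null and 7637 in Zfp871-/-, against 5817 in Trp53-/- and 5154 in WT. Its log2 ratios were 0.57 (0.52 to 0.62) with Trp53 and 0.28 (0.23 to 0.33) without it, and it was named after its values were seen. The fitted change of 0.42 (SE 0.128) missed the threshold of the edgeR quasi-likelihood test (Benjamini-Hochberg adjusted p = 0.874). Usp14, a protease of the proteasome, had log2 ratios of 0.32 (0.24 to 0.41) and 0.09 (0.02 to 0.16), but 26% of its exon bases overlap Thoc1 on the other strand. Usp39 had 0.36 (0.24 to 0.47) and 0.12 (0.02 to 0.21).

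The signs of Zfp871 loss in both backgrounds were then compared. Of the 45, 24 had the same sign in both pairs of Zfp871 loss (53.3%), beside 54.3% of all genes, and Spearman's rho was 0.08 over the members and 0.07 over all genes, given as a description. Leaving out Usp26, 23 of 44 had the same sign (52.3%) and Spearman's rho was 0.02. Usp31 had 1519 counts in the double null, 1065 in Zfp871-/-, 1515 in Trp53-/- and 700 in WT. WT was again the low library, with log2 ratios of Zfp871 loss of 0.61 (0.47 to 0.75) and -0.08 (-0.19 to 0.02).

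**Figure D3:**
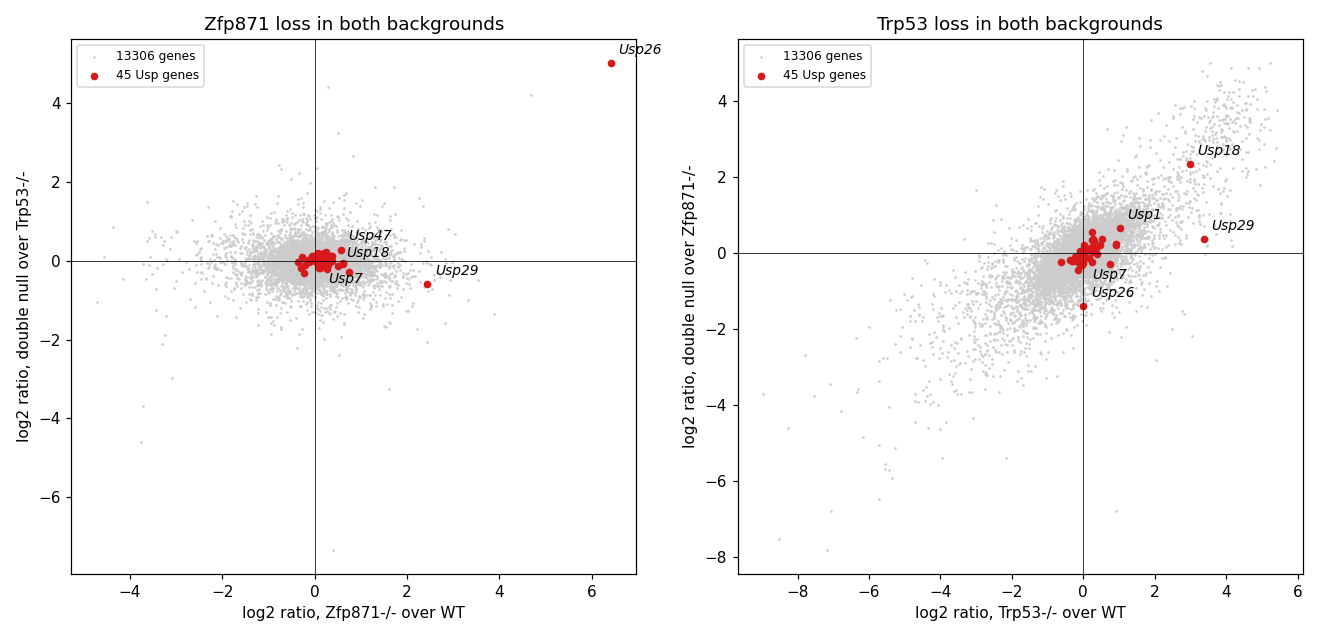
log2 ratios of normalized counts with a prior count of 2, with Zfp871 loss on the left (Zfp871-/- over WT on the x axis, double null over Trp53-/- on the y axis) and Trp53 loss on the right (Trp53-/- over WT on the x axis, double null over Zfp871-/- on the y axis). Grey points are all 13306 genes and red points the 45 USP genes: Usp26 stands alone at the top right of the first panel, where its place depends on the prior count, and Usp18 lies with the genes that are high on both axes of the second.

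Trp53 loss moved 2 members past the test. Usp18 and Usp1 rose and 0 members fell, or 2 of 45 (4.44%), beside 5.01% of all genes that rose and 4.31% that fell (9.33% either way). At an unadjusted p under 0.05 there were 8 members, beside 31% of all genes. Usp18 (ENSMUSG00000030107, chromosome 6, 121245906 to 121270917, plus strand) removes ISG15, a ubiquitin-like protein made in response to interferon, and damps the interferon receptor. It had 1155 counts in the double null and 1196 in Trp53-/-, against 184 in Zfp871-/- and 129 in WT. Both libraries without Trp53 were far above both with it. Usp18 rose by 2.67 on the log2 scale (SE 0.214, edgeR quasi-likelihood test, Benjamini-Hochberg adjusted p = 0.0148), and its log2 ratio was 2.98 (2.74 to 3.27) in Trp53-/- over WT and 2.34 (2.12 to 2.58) in the double null over Zfp871-/-.

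Most genes of the ISG15 pathway rose as well. Of 9 listed genes 7 rose and 0 fell with Trp53 loss, beside 5.01% and 4.31% of all genes. Their median log2 ratio was 1.43 in Trp53-/- over WT and 1.06 in the double null over Zfp871-/-. The median of all genes was 0.00 in each. Isg15 itself had 2921 counts in the double null and 3718 in Trp53-/-, against 387 in Zfp871-/- and 352 in WT, and rose by 2.90 (SE 0.183, adjusted p = 0.0102 in the edgeR quasi-likelihood test). The transcription factor gene Irf7 rose by 2.54 (SE 0.269, adjusted p = 0.0229) and Ube2l6, the conjugating enzyme of ISG15, by 1.68 (SE 0.278, adjusted p = 0.0416) in that edgeR test. Uba7, its activating enzyme, had a change of 1.72 (SE 0.401) and missed the threshold (edgeR, adjusted p = 0.0737). Macrophage markers moved in the same libraries. All 15 listed rose with Trp53 loss, beside 5.01% of all genes. Their summed level was 972.2 and 1077.8 CPM in the double null and Trp53-/-, against 88.9 and 77.3 CPM in Zfp871-/- and WT. None of them was at 0 in any library, and their part in the level of Usp18 was not tested.

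Usp1 (ENSMUSG00000028560, chromosome 4, 98923810 to 98935543, plus strand) takes ubiquitin off FANCD2 and PCNA, proteins of DNA crosslink repair and replication. It had 3320 counts in the double null and 3126 in Trp53-/-, against 1718 in Zfp871-/- and 1335 in WT. Usp1 rose by 0.83 (SE 0.135, edgeR quasi-likelihood test, Benjamini-Hochberg adjusted p = 0.0405), and its log2 ratio was 1.02 (0.92 to 1.11) in Trp53-/- over WT and 0.65 (0.56 to 0.73) in the double null over Zfp871-/-. Of its substrate genes, Pcna rose by 0.98 (SE 0.119, adjusted p = 0.0273) and Fancd2 by 1.05 (SE 0.186, adjusted p = 0.0458) in the edgeR test. Fanci, the partner of FANCD2 and also a substrate, had a fitted change of 0.42 (SE 0.197) that did not pass (edgeR, adjusted p = 0.234). Wdr48, which encodes the activating partner of USP1, had a fitted change of 0.04 (SE 0.103, adjusted p = 0.833 in the edgeR test). Of the 17 cofactors and substrates listed after the member values were known, 3 rose and 0 fell with Trp53 loss. All genes had shares of 5.01% and 4.31%. The third that rose was Sart3, a partner of USP4 and USP15. Of 11 USPs listed for DNA damage and histones, 9 passed the CPM filter and Usp1 was the only one called, or 1 of 9 beside 9.33% of all genes. The macrophage markers were high in the same libraries as Usp1, and their part in its level was not tested.

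**Figure D4:**
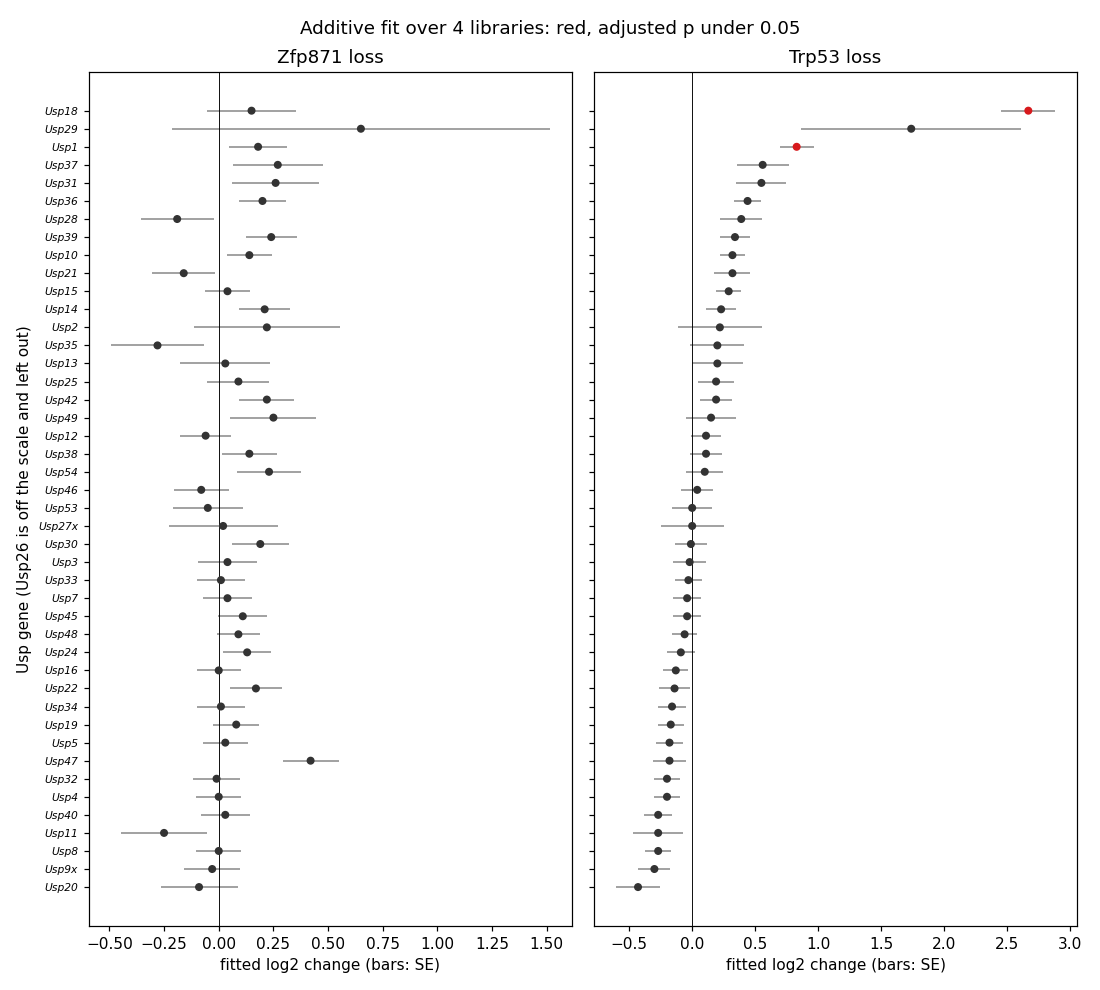
Fitted log2 change of 44 USP genes (y axis) with Zfp871 loss on the left and Trp53 loss on the right, from the additive edgeR fit over 4 libraries, with bars for the SE and red points for an adjusted p under 0.05. Only Usp18 and Usp1 are red, both with Trp53 loss. Usp26 is left out because its fitted value rests on 2 libraries with 0 counts.

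Other members leaned up or down with Trp53 loss by less than the test could call. Of the 45, 38 had a log2 ratio above 0 in both backgrounds or in neither (84.4%), beside 74.7% of all genes. Spearman's rho was 0.69 over the members and 0.66 over all genes. The 38 and the rho of the members include Usp26, which passed the filter only through the libraries without Zfp871. Usp26 had 0 counts in Trp53-/- and 0 in WT, so its ratio in that pair has no sign. Beyond counting error 16 were higher and 11 lower in Trp53-/- against WT, beside 34.3% and 34.4% of all genes. In the double null against Zfp871-/- 13 were higher and 15 lower, beside 32.5% and 32.1%. In both backgrounds 11 were higher and 10 lower, beside 22.9% and 22.4% of all genes. Scaling by total counts changed this split to 13 higher and 1 lower, Usp9x, beside 31.6% and 15.6% of all genes, and shifted the median ratio of all genes by 0.09 and 0.14. Of the 10, 8 kept a log2 ratio below 0 in both backgrounds under that scaling. Usp36, a nucleolar protease that acts on histone H2B and ribosome assembly, had 1745 counts in the double null and 1506 in Trp53-/-, against 1101 in Zfp871-/- and 913 in WT. Its fitted change of 0.44 (SE 0.109) came closest to the threshold (edgeR test, Benjamini-Hochberg adjusted p = 0.0834). Usp37 and Usp31 had changes of 0.56 (SE 0.206) and 0.55 (SE 0.198) with adjusted p = 0.158 and 0.152 in the edgeR test. On the other side, Usp20, a protease of the VHL and hypoxia pathway, had 378 counts in the double null and 331 in Trp53-/-, against 361 in Zfp871-/- and 439 in WT. Scaled to library size, Usp20 was at 16.3 and 15.2 CPM in the double null and Trp53-/-, against 19.2 and 23.3 CPM in Zfp871-/- and WT. Its fitted change was -0.43 (SE 0.176, adjusted p = 0.194 in the edgeR test).

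At 2-fold, the members apart in Trp53-/- against WT were Usp1, Usp18 and Usp29, all higher, or 3 of 45 beside 17.8% of all genes (8.9% higher and 8.88% lower). In the double null against Zfp871-/- they were Usp18, higher, and Usp26, lower, beside 11.8% of all genes (5.51% higher and 6.33% lower). In the double null against WT they were Usp1, Usp18, Usp26 and Usp29, all higher, beside 18% of all genes (8.79% higher and 9.23% lower). The quartiles of the log2 ratio in Trp53-/- against WT were -0.10 and 0.31 for the members, against -0.35 and 0.34 for all genes.

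**Figure D5:**
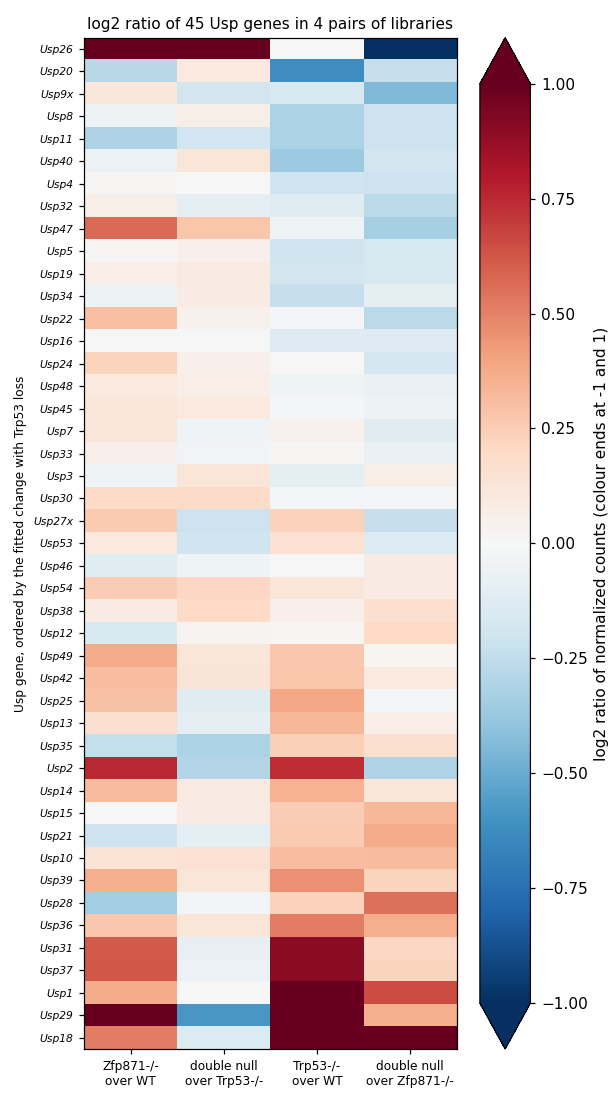
log2 ratio of 45 USP genes (rows, ordered by the fitted change with Trp53 loss) in 4 pairs of libraries (columns), red for higher and blue for lower in the first-named library, with colour ending at -1 and 1. Usp26 is dark red in both Zfp871 columns and Usp29 in that of Zfp871-/- over WT, where Usp2, Usp37 and Usp31 follow at 0.75, 0.62 and 0.61, while Usp18, Usp29 and Usp1 are dark red in Trp53-/- over WT.

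The remaining roles gave smaller values. The X-linked Usp9x, which acts in Smad signalling and polarity, had 5465 counts in the double null, 6015 in Zfp871-/-, 5818 in Trp53-/- and 5581 in WT. Scaled to library size, Usp9x was at 235.6, 319.7, 266.7 and 296.3 CPM in the same order. Usp11, also X-linked, had 195 counts in the double null and 183 in Zfp871-/-, against 210 in Trp53-/- and 227 in WT, and Usp27x, a histone H2B protease, had 160 in the double null and 153 in Zfp871-/-, against 174 in Trp53-/- and 128 in WT. None of these had the pattern of Usp26. Among the histone proteases, Usp21 had 542 counts in the double null and 547 in Trp53-/-, against 340 in Zfp871-/- and 394 in WT, and its fitted change with Trp53 loss of 0.32 did not pass (edgeR, adjusted p = 0.224). Usp3, Usp16 and Usp45 had fitted changes with Trp53 loss of -0.02, -0.13 and -0.04. Usp13, a relative of Usp5, had 240 counts in the double null and 242 in Trp53-/-, against 185 in Zfp871-/- and 166 in WT. Usp33, the relative of Usp20, had 1184 counts in the double null, 1008 in Zfp871-/-, 1138 in Trp53-/- and 976 in WT. Among proteases of endosomes and mitophagy, Usp8 had log2 ratios of Trp53 loss of -0.32 (-0.41 to -0.24) and -0.21 (-0.30 to -0.13). Usp30, which sits on mitochondria and opposes their removal, had ratios of Zfp871 loss of 0.19 (0.01 to 0.37) and 0.19 (0.03 to 0.35). Usp22, the protease of the SAGA complex, had ratios of Zfp871 loss of 0.30 (0.22 to 0.38) with Trp53 and 0.04 (-0.04 to 0.11) without it. Usp35, a mitochondrial protease, had ratios of Zfp871 loss of -0.24 and -0.32 from 182 counts in the double null, 132 in Zfp871-/-, 214 in Trp53-/- and 156 in WT. Usp53, listed for cell junctions, had 448 counts in the double null, 402 in Zfp871-/-, 484 in Trp53-/- and 376 in WT. Of the members in no role list, Usp12, Usp25, Usp32, Usp34, Usp38, Usp40 and Usp46 had log2 ratios in Trp53-/- over WT between -0.36 (Usp40) and 0.39 (Usp25).

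Deubiquitinases of the other families were set beside the USPs. All 34 listed passed the CPM filter, and their median log2 ratios were -0.05 in Zfp871-/- against WT and 0.03 in the double null against Trp53-/-. None was 2-fold apart in either pair, beside 7.5% and 1.83% of all genes. With Trp53 loss Uchl5, a protease bound to the proteasome, rose by 0.92 (SE 0.135, edgeR quasi-likelihood test, Benjamini-Hochberg adjusted p = 0.035). Of the 34, 1 rose and 0 fell, beside 5.01% and 4.31% of all genes. Tnfaip3, the inflammatory regulator A20, had a change of 1.07 (SE 0.266) and did not pass (adjusted p = 0.0828 in the edgeR test). None of 6 genes for ubiquitin and its activating enzymes was called for either loss. Of all genes, 0% were called for Zfp871 loss and 9.33% for Trp53 loss. The summed level of the 6 stayed between 1394.3 and 1422.7 CPM in the 4 libraries.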

How the data were processed

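Total RNA of 4 fibroblast cultures was sequenced, 1 library per genotype. The authors deposited raw counts per gene for all libraries, and per the submitters' processing notes the build was mm10 and the tools were fastp, STAR and featureCounts. Their versions, the annotation release and the strand setting were not given in the sources used here, so reads of overlapping genes on opposite strands may not be told apart. The deposited table per library carries no unit in its header. Its values equal the deposited counts divided by 1 length per gene and 1 factor per library, to within 5.43e-06% over 13191 genes, and were read as FPKM made by the authors.

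Counts were normalized by TMM and genes with a CPM of at least 1 in at least 2 libraries were kept (13306 genes). The additive model of Trp53 and Zfp871 status was fitted with edgeR 4.0.16 (quasi-likelihood F test, R 4.3.3) with 1 residual degree of freedom, Benjamini-Hochberg adjustment over all genes kept and a threshold of 0.05. It takes any difference between backgrounds as error. The labels do not say that cultures came from separate embryos, so p-values measure only the spread between these libraries. Ratios between 2 libraries are log2 ratios with a prior count of 2. Their intervals are 95% exact Clopper-Pearson intervals for counting error only (scipy 1.17.1). Against 0 counts a fold was computed with 3 counts in place of 0, without the error of the other library. Alternatives used DESeq2 1.42.0, limma 3.58.1, other scalings, filters, prior counts and folds, and the authors' FPKM.

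The members and lists were chosen with earlier results of these data known. Named were Usp26, Usp7, members past the test or 2-fold apart in a pair, the 3 highest and 3 lowest members and members of the role lists. The lists of cofactors and substrates and of the imprinted domain of Usp29 were added after the member values were seen. Promoters came from RefSeq (GRCm38.p6), and gene positions from GENCODE M21.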

Additional observations from a re-analysis of the deposited data

Results flagged for a closer look

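In 4 members the ratio of Zfp871 loss pointed one way with Trp53 and the other way without it, beyond counting error in both, or 4 of 45 beside 9.52% of all genes. These differences between backgrounds were not tested, since each rests on 4 single libraries. Usp29 had log2 ratios of 2.43 with Trp53 and -0.58 without it, a difference of -3.02 between the second and the first. Usp18 had 0.51 and -0.14, a difference of -0.65. Usp25, which acts in inflammatory signalling, had 0.29 and -0.12, a difference of -0.41. Usp9x had 0.11 and -0.18, a difference of -0.29.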

How the results depend on the processing

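Usp1 and Usp18 passed the test for Trp53 loss under all 8 settings run, with adjusted p between 0.0025 and 0.0482 for Usp1 and between 2.61e-16 and 0.0202 for Usp18 (edgeR, DESeq2 or limma). For Zfp871 loss the count of members called was 0 except without a filter on low counts, where it was 1 (Usp26, from which nothing is read, since it was chosen for this pattern). Over all genes, Zfp871 loss then gave 2 that rose and 4 that fell, and DESeq2 gave 3 and 4. Trp53 loss gave 667 genes that rose and 574 that fell, against 884 and 432 with total counts, 1113 and 1191 without a filter and 348 and 350 with a CPM of at least 1 in all 4 libraries.

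Members 2-fold apart numbered 4 in place of 2 without a filter both in Zfp871-/- over WT and in the double null over Zfp871-/-. With the CPM filter in all 4 libraries, which removes Usp26 and Usp29, they numbered 0 in Zfp871-/- over WT, 0 in the double null over Trp53-/-, 1 in the double null over Zfp871-/- and 2 in the double null over WT. Shares of all genes under these filter settings are not given here, so nothing about the family is read from these numbers. The members added without a filter, Usp43, Usp44 and Usp50, had at most 16 counts in any library. At 1.5-fold the members apart numbered 5 in Zfp871-/- over WT, 7 in Trp53-/- over WT and 7 in the double null over WT. The shares of all genes were 18.9%, 31.9% and 33.2% in the same order.

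Total counts moved the log2 ratio of Usp7 to 0.13 in Trp53-/- over WT, 0.02 in the double null over Zfp871-/- and 0.09 in the double null over WT, and shifted the median of all genes by 0.14 in the double null over Zfp871-/-. Members beyond counting error in both backgrounds, counted under other scalings chosen after seeing the data, became 5 in place of 9 (higher with Zfp871 loss) and 1 in place of 10 (lower with Trp53 loss). The shares of all genes under total counts were 7.14% and 15.6%. Of 356 ratios of single members recomputed, 22 moved beyond their interval, all with total counts. No paired analysis was possible because the labels give no replicate numbers and each genotype has 1 library. For the same reason no library could be left out of the additive fit, which would leave no residual degrees of freedom. Depth limits Usp26, Usp29 and the 5 members below the CPM filter most.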
